A study of Mus musculus with 12 samples.

Results

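The genes described here are 7 mouse genes of innate immunity, which cover a sensor of viral RNA, antiviral effectors and signalling proteins behind sensors of viruses and bacteria. They are Ddx58, Samd9l, Trim14, Ripk2, Map3k7, Otulin and Lyn, 7 of the 56923 gene rows in the deposited table. They were chosen by symbol, from parts of chromosomes 4, 6 and 15 in which the level of a row follows the exons of the gene it is named for. The libraries came from brain sections of wild-type mice that spent 5 hours in a salt solution made to resemble the fluid around the brain (artificial cerebrospinal fluid, aCSF). In 6 libraries the fluid was aCSF alone, and in the other 6 it also held L-fucose, a sugar found at the ends of many glycan chains on proteins and lipids. Both groups therefore share the sectioning and the 5 hours outside the animal, and no library here comes from brain that was not incubated. The sources used here do not give the L-fucose concentration, the brain region, the age or sex of the mice, or whether each library comes from its own animal. If libraries of the same group share an animal, the p-values below measure a spread that is partly technical. The sample titles carry the same replicate numbers in both groups. If a number stands for the same animal, libraries are paired across the groups, and the main tests below do not take that pairing into account.

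Cells recognise viruses and bacteria by sensors in the cytosol. Ddx58 encodes RIG-I, an RNA helicase that binds uncapped viral RNA and signals through the mitochondrial adaptor MAVS to switch on type I interferons. Interferons in turn raise the level of antiviral genes, of which Samd9l, a restriction factor, and Ddx58 itself are examples. Bacterial cell wall fragments are recognised by NOD receptors, which act through the kinase Ripk2 and the kinase TAK1, the product of Map3k7, to release the transcription factor NF-kB. Ubiquitin chains hold these complexes together, and Otulin takes apart the linear kind. In brain these pathways are best known from microglia, the resident macrophages, but neurons and astrocytes carry many of the same proteins.

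Depth ran from 9191687 to 18563078 reads counted over all rows, with a median of 11168285. Values are normalized reads, the reads of a row divided by 1 size factor per library. In windows of 80 neighbouring rows, levels fitted protein-coding exons best at a position more than 1000 bp from the annotated one in 2419 of 2527 windows, or 95.7%, so most rows of the table may not have counted the gene they name. The regions used here, called in register, held 1005 rows in 4 stretches of GRCm38, of which those of chromosome 4 covered 3.10 to 40.97 Mb and 45.14 to 55.53 Mb, that of chromosome 6 covered 3.07 to 23.25 Mb and that of chromosome 15 covered 8.92 to 31.73 Mb. All 7 genes lie there, as they were chosen from such regions. With exons scored by their bases, a best fit within 1000 bp in every covering window is the condition for being in register. That fit is therefore no separate check of the 7 genes. With exons scored by their share of the row, every window that covers the 7 genes also fitted best within 1000 bp. Samd9l and Lyn were covered by only 1 window each, and the other genes by 4. Displacements of less than 1000 bp were not told apart from none. As a check of the tissue, the neuronal genes Basp1 and Gabbr2 in these regions had 23057 ± 1611 and 10672 ± 1135 normalized reads in aCSF (SD, n = 6). The libraries aCSF 5 and aCSF 6 stood apart in rows above 0, with 14340 and 14856 against 16514 or more in the others. They also had the highest shares of reads in rows named for mitochondrial genes, 41.9% and 44.8%, though L-fucose 6 was close at 40.5%. Results are also given without aCSF 5 and aCSF 6 where that matters.

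Promoter sequence was looked up because interferon and NF-kB act through known DNA motifs. The RefSeq table (GRCm38.p6), which spans 250 bases before to 50 after each start, held an entry for 4 of the 7 genes, Ddx58, Samd9l, Map3k7 and Otulin. Both strands were searched for the core of the interferon-stimulated response element (ISRE, GAAA repeated after any 2 bases), the GAS element of STAT factors (TTCNNNGAA), an ETS motif (AGAGGAAG) and the NF-kB consensus. The stretches below are shown because they hold the matches of the sensor, of the kinase upstream of NF-kB and of Tdrd7, an interferon-induced antiviral gene among the listed genes described further on. Capitals mark the match, and each stretch reads along the strand of its gene.
Ddx58, ISRE core on the reverse strand, chr4:40239804-40239833 (minus strand): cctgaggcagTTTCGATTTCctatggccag
Map3k7, NF-kB consensus on the reverse strand, chr4:31963990-31964049 (plus strand): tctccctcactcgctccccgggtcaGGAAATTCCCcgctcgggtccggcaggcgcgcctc
Tdrd7, ISRE core, chr4:45972081-45972140 (plus strand): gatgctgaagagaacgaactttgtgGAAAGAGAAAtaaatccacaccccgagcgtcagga
The match in Ddx58 begins 2 bases after the annotated start, that in Map3k7 92 bases before it, and that in Tdrd7 191 bases before 1 of its 3 annotated starts. An ISRE core was found in 3.44% of the 32851 promoters in the table and the NF-kB consensus in 4.51%. The GAS letters (8.30%) and the ETS letters (4.55%) matched in none of the 4 promoters, and none of the searched letters lay in the windows of Samd9l or Otulin. Of the 13 listed genes 9 had an entry, and of these only Tdrd7 held an ISRE core. Other matches among the listed genes were the GAS letters in Il7r and the ETS letters in 1 entry each of Tdrd7 and Tgfbr1. A match describes letters and does not show that a factor binds there.

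The design sets L-fucose against aCSF, to ask how the sugar bears on transcript levels. None of the 7 genes passed the test in either direction. All 7 had enough reads to be tested, that is 10 or more normalized reads in 6 or more libraries. With limma on log2(value + 1) and Benjamini-Hochberg adjustment, 0 of 7 had an adjusted p under 0.05, against 0 of 10787 rows tested (0%). The smallest adjusted p among them was 0.856, and 0 of 7 had an unadjusted p under 0.05, which 5.96% of all tested rows had (3.17% with a higher and 2.79% with a lower value in L-fucose) and 8.46% of tested rows in register. The groups overlapped in all 7, while 0.287% of all tested rows and 0.627% of those in register had groups that did not overlap. Their log2 fold changes, L-fucose minus aCSF, ran from -0.34 for Trim14 to 0.0052 for Otulin, with a median of -0.12, against a median of 0.01 over all tested rows and -0.06 over the 319 tested rows in register. For 6 of the 7, all but Trim14, the 95% confidence interval lay within 1 log2 unit of no change, as it did in 64.3% of all tested rows and 80.3% of those in register.

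**Figure D1:**
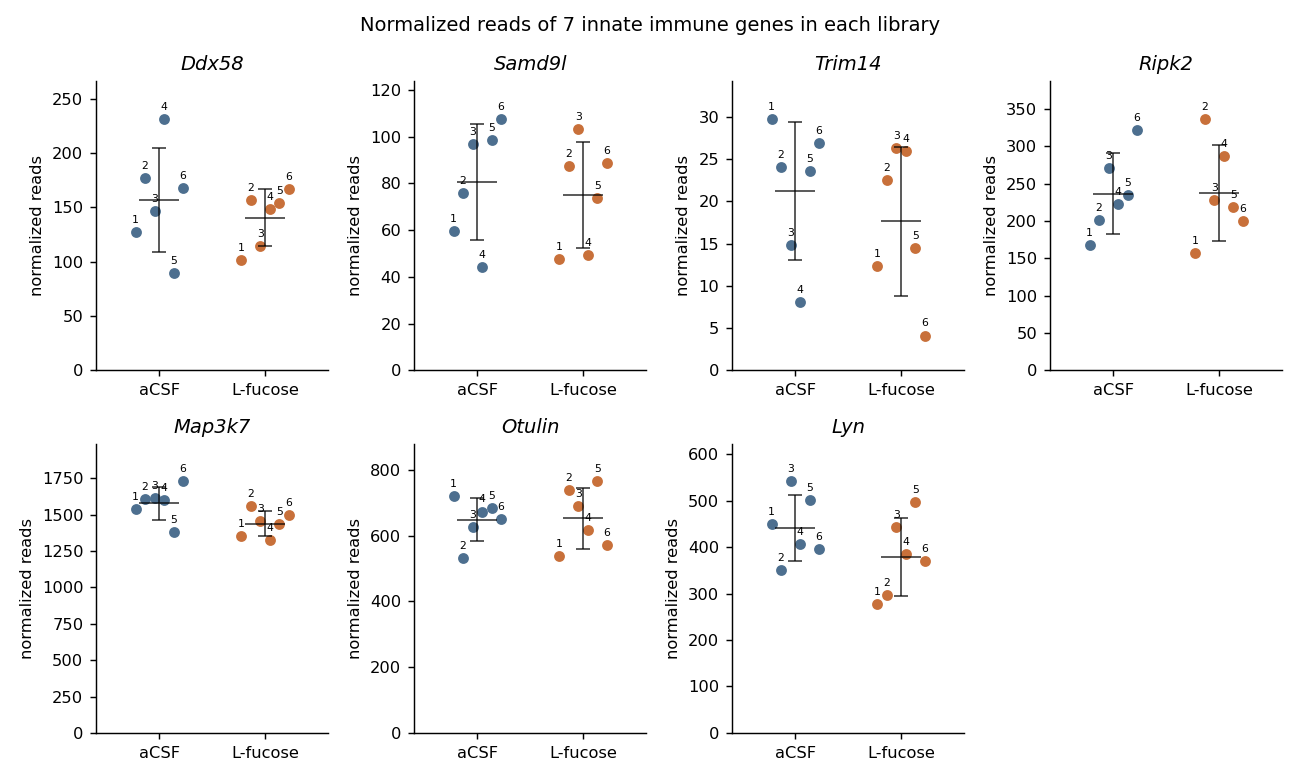
Normalized reads of the 7 genes in each library, by group, with the replicate number beside each point and the mean and SD (n = 6) as horizontal and vertical bars; each panel has its own axis from 0. The groups overlap in every panel. L-fucose 1 lies below the mean of the 12 libraries in all 7, and its position in other rows is not shown.

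Ddx58, the RIG-I gene (ENSMUSG00000040296, chromosome 4 from 40203773 to 40239828), had 89.7, 157 and 232 normalized reads as the lowest, median and highest aCSF library, and 101, 151 and 167 in L-fucose. All 6 L-fucose libraries lay inside the aCSF range, and the extremes were both aCSF libraries, aCSF 5 at the bottom and aCSF 4 at the top. The means were 157 ± 48.2 in aCSF and 140 ± 26.3 in L-fucose (SD, n = 6 each). The log2 fold change was -0.12 (standard error 0.22, interval -0.57 to 0.33), so the data allow a level from 0.673 to 1.25 times that of aCSF. The fold change was -0.27 without aCSF 5 and 6, and the sign turned without 1 library, aCSF 4 (0.0023).

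Samd9l, an interferon-induced gene whose product restricts viral replication (ENSMUSG00000047735, chromosome 6 from 3372257 to 3399572), ranged from 44.3 to 108 around a median of 86.2 in aCSF and from 47.5 to 103 around 80.6 in L-fucose. Each group held both low and high libraries, with aCSF 4 and L-fucose 1 and 4 under 50 normalized reads. The log2 fold change was -0.09 (standard error 0.28, interval -0.67 to 0.48), and it was 0.12 without aCSF 5 and 6, the highest libraries of aCSF. It was also above 0 without L-fucose 1 (0.025), L-fucose 4 (0.013) or aCSF 6 alone (0.0030).

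Trim14, which encodes a mitochondrial adaptor that joins MAVS signalling (ENSMUSG00000039853, chromosome 4 from 46493781 to 46536141), was the scarcest of the 7. It had 8.06, 23.8 and 29.8 normalized reads as the lowest, median and highest aCSF library and 4.11, 18.5 and 26.3 in L-fucose, from 5 to 37 reads per library. Both groups held libraries near the floor of the filter, aCSF 4 and L-fucose 6. The log2 fold change of -0.34 had an interval from -1.39 to 0.71, so it includes both a drop to 0.381 times and a rise to 1.64 times the aCSF level. Without L-fucose 6 it was -0.0064. Of the exonic bases of Trim14, 38.0% are shared with genes on the other strand, among them Nans, the sialic acid synthase gene, and no source used here states the strand setting of the counting. The level of Trim14 is uncertain for that reason.

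Ripk2, the kinase that relays NOD receptor signals (ENSMUSG00000041135, chromosome 4 from 16122733 to 16163647), had means of 236 ± 54.1 in aCSF and 238 ± 64.4 in L-fucose. Its libraries ran from 167 to 322 (median 229) in aCSF and from 157 to 337 (median 223) in L-fucose, so each group covered a range of about the same width. The log2 fold change was -0.0023 (standard error 0.19, interval -0.40 to 0.40), and its sign varied with the library left out and with the test.

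Map3k7, the gene of the kinase TAK1 at which NOD, Toll-like and TNF receptor signals meet (ENSMUSG00000028284, chromosome 4 from 31964097 to 32023467), varied least. Its lowest, median and highest values were 1383, 1604 and 1729 in aCSF and 1328, 1446 and 1561 in L-fucose. Every L-fucose library was under the median of aCSF, but 4 of the 6 lay inside the aCSF range, whose lowest value was that of aCSF 5. The means were 1580 ± 114 and 1438 ± 87.0, a log2 fold change of -0.13 (standard error 0.09, interval -0.31 to 0.05, limma adjusted p 0.856). The interval reaches from 0.804 to 1.03 times the aCSF level, the tightest bound among the 7 genes. Left out 1 at a time, single libraries moved the fold change only between -0.17 and -0.11.

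Otulin, the deubiquitinase that removes linear ubiquitin chains and so damps NF-kB signals (ENSMUSG00000046034, chromosome 15 from 27542635 to 27630693), had 532, 662 and 722 normalized reads as the lowest, median and highest aCSF library and 537, 654 and 765 in L-fucose. The L-fucose libraries were split evenly about the aCSF median, 3 above and 3 below. Its log2 fold change was 0.0052 (standard error 0.12, interval -0.24 to 0.25). Otulinl, a paralog of Otulin beside it on the same strand, was at -0.031 (interval -0.32 to 0.26).

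Lyn, a Src-family kinase of myeloid and B cells that in brain marks microglia (ENSMUSG00000042228, chromosome 4 from 3678115 to 3813122), had 351, 429 and 542 normalized reads as the lowest, median and highest aCSF library and 277, 378 and 497 in L-fucose. The 2 lowest libraries were L-fucose 1 and 2, while L-fucose 5 and 3 were above the aCSF median. The means were 441 ± 71.0 and 378 ± 84.1, a log2 fold change of -0.24 (standard error 0.15, interval -0.56 to 0.08, limma adjusted p 0.856). It stayed negative in every alternative run, from -0.32 to -0.15, and passed the adjusted threshold in none. In bulk tissue, fewer cells of a type and less RNA per cell cannot be told apart.

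**Figure D2:**
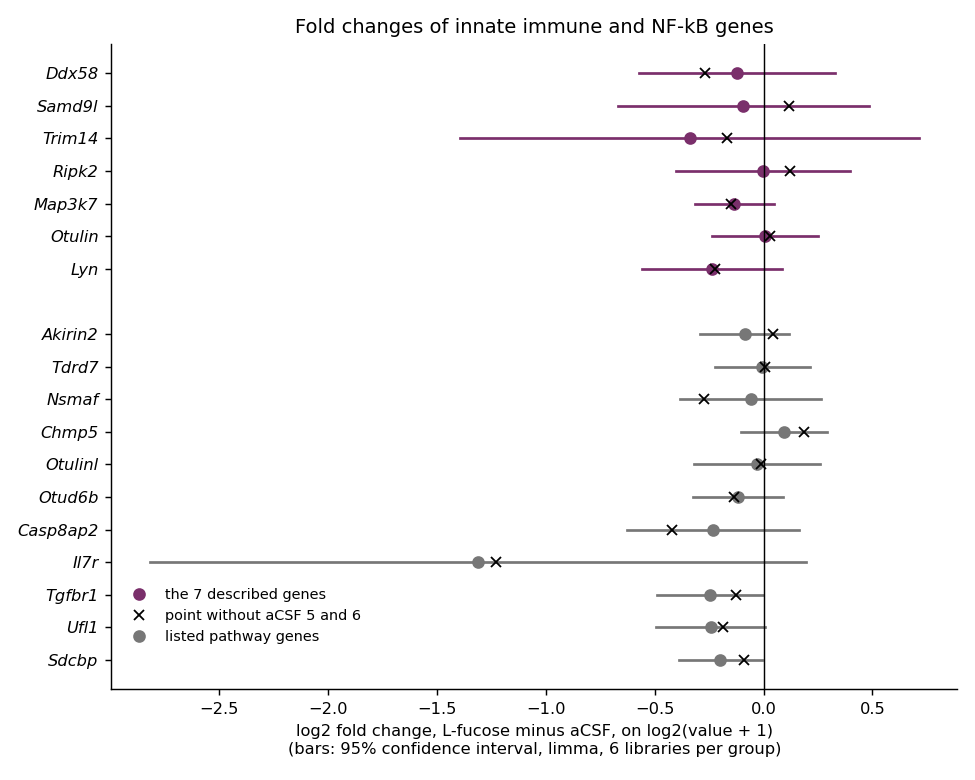
Log2 fold changes (points) with 95% confidence intervals from limma (bars, n = 6 libraries per group) for the 7 genes and the 11 listed pathway genes tested in register; crosses give the fold change without aCSF 5 and 6. The intervals include 0 for all 7 genes, and that of Trim14, from -1.39 to 0.71, is the widest of the 7.

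Levels of different genes were compared per kb of exon, with the exons of the GENCODE M21 annotation of GRCm38. Otulin was highest at 384 ± 45.2 normalized reads per kb (SD over 12 libraries), followed by Map3k7 at 235 ± 18.9, and the ranges of these did not overlap. Lyn at 101 ± 19.9 and Ripk2 at 84.2 ± 20.1 came next and were not told apart, since their ranges overlapped, although Lyn was higher in 9 of 12 libraries. Ddx58 at 21.1 ± 5.39 and Samd9l at 14.3 ± 4.21 also overlapped, with Ddx58 higher in 10 of 12. Trim14 was lowest at 4.47 ± 1.92, below Samd9l in all 12. The median of the 319 tested rows in register was 108 per kb, with Otulin above 79.9% of them and Ddx58, Samd9l and Trim14 above 16.9%, 10.3% and 3.45%. The 3 genes of viral RNA sensing and interferon response were thus the lowest of the 7, and the genes of ubiquitin and kinase signalling the highest. The exon length that the authors' counting used is not given in the sources used here, and Otulin, with 1693 exonic bases in this annotation, would rank lower with longer exons.

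**Figure D3:**
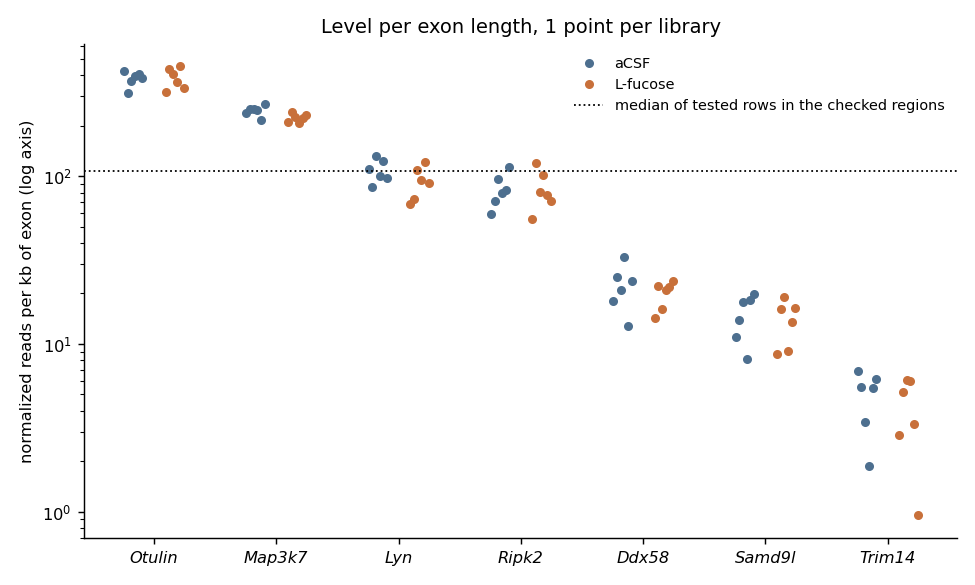
Normalized reads per kb of exon (log axis) for the 7 genes in order of their mean, with 1 point per library and colours for the groups; the dotted line is the median of the tested rows in register, 108 per kb. Otulin and Map3k7 lie above the line in every library, and Ddx58, Samd9l and Trim14 below it.

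The genes also differed in how much libraries of one group varied. The coefficient of variation of Map3k7 was 7.21% in aCSF and 6.05% in L-fucose, that of Otulin 10.1% and 14.2%, and that of Lyn 16.1% and 22.2%. Ripk2 varied by 22.9% and 27.1%, Samd9l by 31.0% and 30.1%, Ddx58 by 30.7% and 18.7% and Trim14 by 38.5% and 49.9%. Counting alone gives 22.7% and 23.2% for Trim14 but 2.60% and 2.53% for Map3k7 and 8.21% and 8.06% for Ddx58, so the observed spread was above the counting spread in all 7. The within-group SD on the log2 scale was 0.10 for Map3k7, 0.18 for Otulin and 0.28 for Lyn, beside a median of 0.42 over all tested rows and 0.25 over those in register. It was 0.38 for Ddx58, 0.48 for Samd9l and 0.80 for Trim14. L-fucose 1 was below the mean of the 12 libraries in all 7 genes, with a median deviation of -0.51 on the log2 scale. It was the lowest library for Ripk2 and Lyn. The share of other rows below their mean in L-fucose 1 is not given here. The count is therefore not shown to be particular to these genes. Without L-fucose 1 the fold change was -0.15 for Lyn, -0.12 for Map3k7 and 0.11 for Ripk2, and 0 of the 7 genes passed the threshold.

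**Figure D4:**
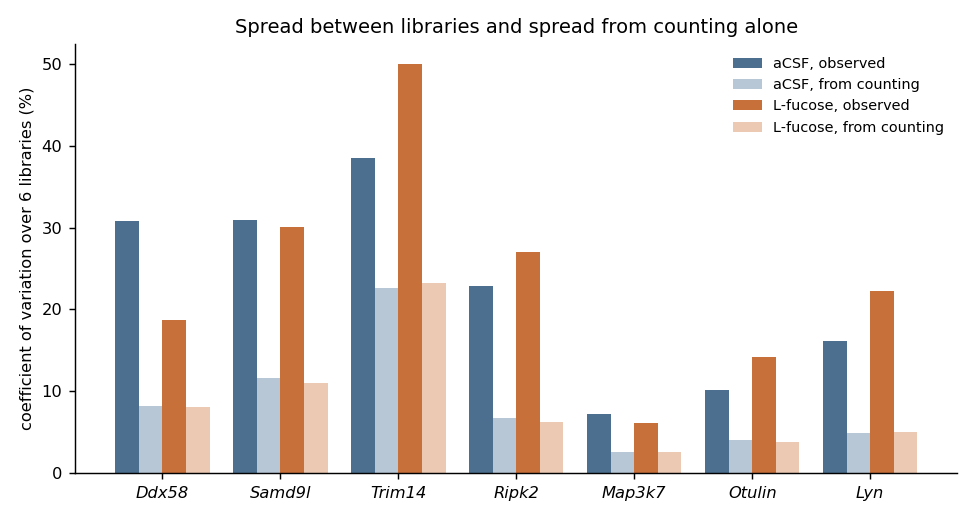
Coefficient of variation of normalized reads over the 6 libraries of each group (dark bars), beside the value that read counting alone would give at the same depth (pale bars). The observed bar is above the counting bar for every gene, and the difference between them is smallest in proportion for Trim14.

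Profiles over the 12 libraries were compared by the root mean square distance between log2 values, each gene centred on its own mean. Among 263 named rows in register, Map3k7 was closest to Trio, at 0.08, and March6, at 0.09, where the median distance was 0.25. Otulin was closest to Tmem38b and Fam3c (0.13 each, median 0.28), Lyn to Pnrc1 and Pdk4 (0.18 and 0.19, median 0.36) and Ripk2 to Msantd3 and Rps20 (0.23 and 0.27, median 0.39). Ddx58 was closest to Runx1t1 and Ttpa (0.25 and 0.26), Samd9l to Nipsnap3b and Tbc1d2 (0.29 and 0.31) and Trim14 to Dnah5 and Sem1 (0.54 and 0.57). No gene of the 7 was among the 2 nearest rows of another. With only 2 rows kept of 263, that says little about whether the 7 genes vary together. Profiles share library depth and composition, and a flat gene is near any other flat gene by this measure.

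Other genes of interferon, antiviral and NF-kB signalling lie in the same regions. Of 12 such listed genes in register, 11 were tested, and Ifnk, an interferon, was at 0 in all 12 libraries. With limma, 0 of 11 passed the adjusted threshold in either direction (smallest adjusted p 0.827). An unadjusted limma p under 0.05 was found for 2 of 11, against 8.46% of tested rows in register and 5.96% of all tested rows. Of the 11 fold changes 10 were negative, against 61.1% of tested rows in register and 48% of all tested rows. Their median was -0.12, and -0.13 without aCSF 5 and 6. The unadjusted values were those of Sdcbp, a scaffold protein of membranes, at -0.20 (interval -0.39 to -0.0084) and Tgfbr1, a TGF-beta receptor kinase that microglia carry at high levels, at -0.25 (-0.49 to -0.0030). Without aCSF 5 and 6 these were -0.09 and -0.13, with intervals that included 0.

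The nuclear NF-kB cofactor Akirin2 was at -0.09 (0.042 without aCSF 5 and 6), with 2478 ± 373 normalized reads in aCSF and 2315 ± 128 in L-fucose. Tdrd7, whose ISRE core is printed above, was at -0.0063 (interval -0.23 to 0.21), with 1159 ± 158 and 1150 ± 106. Nsmaf, an adaptor of the TNF receptor, was at -0.06, and at -0.27 (-0.55 to -0.0012, limma adjusted p 0.441) without aCSF 5 and 6. Casp8ap2, a partner of caspase-8 in death receptor signalling, was at -0.23 (-0.42 without these libraries), the deubiquitinase Otud6b at -0.12 and Ufl1, a ligase for the ubiquitin-like protein UFM1, at -0.24 (-0.49 to 0.0079). Chmp5, an endosomal sorting protein, was the one listed gene with a positive value, 0.09 (-0.10 to 0.29). Il7r, a lymphocyte cytokine receptor, had 18.1 ± 4.71 in aCSF and 11.3 ± 10.1 in L-fucose, from 0 to 30 reads per library, and its fold change of -1.31 had an interval from -2.82 to 0.19. That value was -0.73 without L-fucose 1, -0.69 in DESeq2, -0.68 in edgeR, -0.53 with a pseudocount of 10 and -1.95 with one of 0.1. A further listed gene, Mtdh, lay outside the stretches in register and is not described.

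Canonical genes of these pathways lie outside the regions in register, so the rows that carry their names are given as counts and medians, with no gene singled out. Of 29 such rows for RNA sensing and interferon response 11 were tested and 0 passed (median log2 fold change -0.09, and -0.29 without aCSF 5 and 6), of 26 for NOD, TNF receptor and NF-kB signalling 16 and 0 (-0.04 and -0.07), and of 17 for microglia 5 and 0 (-0.36 and -0.67). Which transcripts these rows counted is not known.

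Markers of cell types were summed in each library to set beside the 7 genes. The microglia and macrophage markers in register were Lyn, Tgfbr1, Otulinl and Tfec, the last at or near 0 with at most 12 reads in a library. Their sum was lowest at 1493, median 1765 and highest at 2084 in aCSF, and 1441, 1515 and 1751 in L-fucose. The groups overlapped, with the highest value in aCSF 5. The means were 1752 ± 202 and 1537 ± 115 (SD, n = 6 each), a difference of -215 with a two-sided exact permutation p of 0.0346 over 924 regroupings. This p was not adjusted. It rose above 0.05 when most single libraries were left out, which also makes a group smaller. The difference was -128 without aCSF 5 and 6 (exact permutation p = 0.162, n = 4 and 6) and -152 without Lyn, whose choice drew on earlier results (exact permutation p = 0.0758). As CPM with TMM factors it was -17.2 (exact permutation p = 0.0649). Most of the difference in the sum came from Tgfbr1, with means of 862 in aCSF and 723 in L-fucose. The means were 441 and 378 for Lyn and 445 and 434 for Otulinl. Tgfbr1 and Otulinl are also transcribed in other brain cells, so the sum is not a measure of microglia alone.

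Of the other markers, the 3 of ependyma, the ciliated lining of the ventricles, were the only set whose sums did not overlap. Their sum lay between 259 and 411 in aCSF and between 133 and 235 in L-fucose. The groups overlapped in each of Spef2, Capsl and Cfap206 taken alone, and 0.627% of tested rows in register had groups that did not. Each of the 3 had an unadjusted limma p under 0.05, as 8.46% of tested rows in register had. Their fold changes ran from -1.30 to -0.76, with 0 past the adjusted threshold in limma. These markers were chosen with earlier results of these data known, so their separation is not independent evidence of a difference. The shares given are of single rows that were not so chosen, and are no baseline for the sum. The astrocyte and progenitor marker Ptprz1 had 6168 ± 775 in aCSF and 4991 ± 449 in L-fucose, at -0.30 (interval -0.49 to -0.11). Neuronal markers summed to 39411 ± 1589 and 39619 ± 1691, and those of endothelium and fibroblasts to 1054 ± 95.04 and 1126 ± 79.3. The choroid plexus marker Prlr was at -0.57 (-1.18 to 0.03). The lymphocyte marker Il7r, with few reads, had the largest fold change of a single marker, -1.31, with the wide interval given above. The part of these differences in the values of the 7 genes was not tested.

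**Figure D5:**
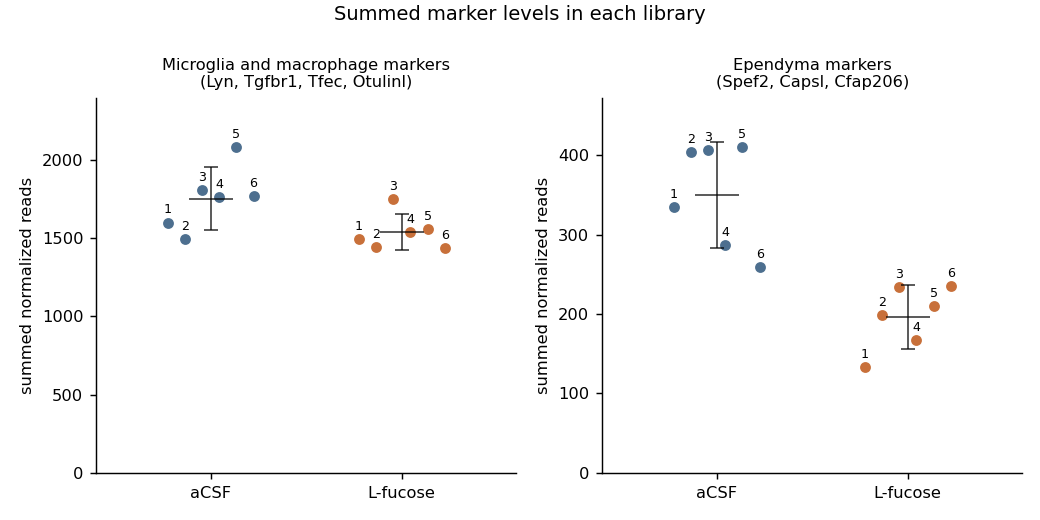
Summed normalized reads of the microglia and macrophage markers (left) and of the ependyma markers (right) in each library, with replicate numbers, and the mean and SD of each group (n = 6) as bars; axes start at 0. The microglia sums overlap between 1493 and 1751, while the ependyma sums of L-fucose, at most 235, all lie below those of aCSF, at least 259. The ependyma markers were chosen with earlier results of these data known.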

How the data were processed

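Per the labels' protocols, poly-A RNA was primed with random hexamers after fragmentation and sequenced on an Illumina instrument. The submitters' processing notes name the build mm10, the counter featureCounts 2.0.3, the aligner HISAT2 2.2.1, DESeq2 2.11.40.8 and the trimmer Trimmomatic 0.39, but no annotation release, strand setting or filter. The table deposited by the authors holds normalized signal, which is the reads of a gene row over a size factor of the library. The values show this, since dividing them by what 1 read is worth gave whole numbers, within 0.01 reads, for 100%. Whole reads were recovered from these multiples and gave the depth.

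Rows were matched to symbols and positions of GENCODE M21 (GRCm38, the assembly of mm10). A symbol was found for 52073 rows. Levels were compared with protein-coding exons after displacing rows by up to 600 kb in steps of 500 bp. Rows in register lie in runs of 120 or more rows in which all windows fitted best within 1000 bp, inside the regions from which the 7 genes were chosen.

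Rows that reached 10 in 6 or more libraries were fitted with limma 3.58.1 on log2(value + 1), with an intensity trend, group as the sole term, two-sided p-values and Benjamini-Hochberg adjustment over all 10787 tested rows at 0.05. The pseudocount understates the fold change of low rows, while a library at or near 0 weighs heavily in their mean log2 value, and for Trim14 and Il7r this scale gave larger changes than edgeR or DESeq2. The fit was also run on simulated reads with the same spread setting for every row, whereas the real rows differed in spread. No result here rests on that run. Alternatives were edgeR 4.0.16 (TMM), DESeq2 1.42.0 and limma-voom on the recovered reads, pseudocounts of 0.1 and 10, no filter, a replicate block, and leaving out aCSF 5 and 6 together or each library in turn. Computations used R 4.3.3, Python 3.11.15, numpy 2.4.6, pandas 2.3.3 and matplotlib 3.10.9. The counting spread covers counting error only, as reads without molecular identifiers are not independent molecules.

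The 7 genes, the lists and the tests were chosen with earlier results of these data known. Named genes are the 7, the listed genes and markers in register, and for each of the 7 the 2 rows in register with the nearest profile, predicted gene models left out.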

Additional observations from a re-analysis of the deposited data

Results flagged for a closer look

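The value of Ufl1 in aCSF 5, 948 normalized reads, lay far from the other 5 aCSF libraries, which had 604 to 723. Its log2 fold change was -0.15 without that library. It was the one such value among 38 groups of 6 examined (the 7 genes, the listed genes in register and the summed microglia markers, in each treatment group), and about 5% of groups would hold one by chance.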

How the results depend on the processing

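In 21 alternatives, 0 of the 7 genes and 0 of the 11 listed genes in register passed the adjusted threshold, and Trim14, Map3k7 and Lyn kept a negative fold change in each. Without aCSF 5 and 6 the sign turned for Samd9l (0.12), Ripk2 (0.12), Akirin2 (0.042) and Tdrd7 (0.0082). Ripk2 was also positive in DESeq2 (0.013), edgeR (0.013) and limma-voom (0.028). Leaving out single libraries gave ranges that included 0 for Ddx58 (-0.27 to 0.0023), Samd9l (-0.25 to 0.025), Ripk2 (-0.11 to 0.11), Otulin (-0.050 to 0.059), Tdrd7 (-0.056 to 0.055), Nsmaf (-0.18 to 0.036) and Otulinl (-0.093 to 0.054). Over all rows, limma gave 0 adjusted calls and 643 rows at an unadjusted p under 0.05. DESeq2 gave 1 call and 1054 such rows of the 29080 it tested without that filter, and edgeR 0 calls and 604 of 10771. There were 1232 such rows with no filter, where 29235 rows were tested, and 1177 without aCSF 5 and 6. Leaving out single libraries gave 426 (without L-fucose 4) to 771, and 0 calls. The summed microglia markers differed by -267 to -149 with single libraries left out, with exact permutation p from 0.0108 (without aCSF 2) upward, and p stayed under 0.05 only without aCSF 1, aCSF 2 or L-fucose 3. It was -128 without aCSF 5 and 6, -152 without Lyn (an alternative chosen after seeing the data) and -17.2 CPM with TMM factors, each above 0.05. The cause of these changes was not tested. The sample titles carry the same numbers in both groups, and whether a number stands for 1 animal is not stated. Same-numbered libraries showed little sign of pairing, as 1 of 6 such pairs had deviations correlated above 0.1 (range -0.17 to 0.17). Weak correlation cannot exclude a shared animal. With a replicate block, limma had 585 and edgeR 515 rows at an unadjusted p under 0.05, both with 0 calls, and Map3k7 stayed at -0.13. Of the 7 genes and the listed genes in register, Trim14 and Il7r have intervals that include a change of 1 log2 unit. At their depth counting alone gives a coefficient of variation of 23.2% and 29.0% in L-fucose, where 49.9% and 89.8% were observed.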
